A study of Mus musculus with 60 samples.

Results

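The fibroblasts of the meninges and of vessel walls express the 9 genes described here: Col1a1, Col1a2, Col3a1, Dcn, Lum, Igf2, H19, Aldh1a2 and Slc6a13. They were chosen by name, with earlier results of these data known, and all 9 had a row among the 18088 genes of the deposited table. The mice were C57BL/6J, either wild type (WT) or heterozygous (HT, Tbr1+/K228E) for a missense allele of Tbr1, which encodes a transcription factor needed by neurons of the deep cortical layers. Vehicle, fluoxetine (a serotonin reuptake inhibitor) or lithium reached the nursing pups through the mother's milk from postnatal day 3 to day 24, which is 3 weeks. Prefrontal cortex was dissected on day 25, and 1 mRNA library was made per sample, 5 for each of the 12 groups of genotype, treatment and sex. Females and males, 30 libraries each, are given apart. Litters, mothers and batches are not named. The limma comparisons below share 1 spread per gene, pooled over the samples within all 12 groups. Littermates that shared a treated mother would make p-values for differences between treatments, and for relations across libraries, too small. P-values for HT against WT and for interactions could then be too small or too large, depending on how litters were split between genotypes.

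The meninges are the membranes around the brain, and the fibroblasts of their inner layers continue along large vessels into the tissue. These cells build the collagen and proteoglycan matrix of the brain surface, and they secrete growth factors and retinoic acid that act on the cortex and its vessels. A piece of dissected cortex carries as much of this membrane as the dissection leaves on it. In bulk tissue, fewer cells of a type and less RNA per cell cannot be told apart.

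The genes lie at the following places on the mouse genome (build GRCm38). Col1a1 (ENSMUSG00000001506, chr11:94936224-94953042, plus strand) and Col1a2 (ENSMUSG00000029661, chr6:4504814-4541544, plus strand) encode the chains of type I collagen. Col3a1 (ENSMUSG00000026043, chr1:45311538-45349706, plus strand) encodes type III collagen, which is laid down in the same fibrils. Dcn (ENSMUSG00000019929, chr10:97479609-97518143, plus strand) and Lum (ENSMUSG00000036446, chr10:97565128-97572703, plus strand) encode decorin and lumican, small leucine-rich proteoglycans that coat collagen fibrils, and they are neighbours 46.98 kb apart. Igf2 (ENSMUSG00000048583, chr7:142650766-142666816, minus strand) encodes insulin-like growth factor 2. H19 (ENSMUSG00000000031, chr7:142575529-142578143, minus strand), a long noncoding RNA, lies 72.62 kb from it. Igf2 and H19 form an imprinted pair that is expressed from opposite parental chromosomes in most tissues and shares enhancers. Parental copies were not told apart here, so the values do not show whether the pair is imprinted in these cells. Aldh1a2 (ENSMUSG00000013584, chr9:71215789-71296243, plus strand) encodes the retinaldehyde dehydrogenase that makes retinoic acid in the meninges. Slc6a13 (ENSMUSG00000030108, chr6:121300227-121337733, plus strand) encodes a GABA and taurine transporter of leptomeningeal cells.

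Promoter sequences were available from RefSeq (GRCm38.p6) for 5 of the 9 genes. The 250 bases before the start site are shown for Col1a2, Col3a1, Aldh1a2 and the most upstream start of Slc6a13, as examples of collagen, retinoic acid and transporter genes. The 4 windows of Igf2 are not printed. Capitals mark 3 textbook promoter motifs, which do not overlap each other and were searched on both strands. The first is the TATA box, searched as TATAAA. The second is the CCAAT box, searched by these letters. The third is the GC box, the letters of which are GGGCGG.
Col1a2, chr6:4505368-4505617, plus strand: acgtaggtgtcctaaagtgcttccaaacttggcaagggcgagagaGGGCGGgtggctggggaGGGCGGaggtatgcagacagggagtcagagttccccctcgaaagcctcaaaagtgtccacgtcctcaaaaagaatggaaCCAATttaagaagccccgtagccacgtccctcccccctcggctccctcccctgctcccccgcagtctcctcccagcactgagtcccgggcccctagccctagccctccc
Col3a1, chr1:45311288-45311537, plus strand: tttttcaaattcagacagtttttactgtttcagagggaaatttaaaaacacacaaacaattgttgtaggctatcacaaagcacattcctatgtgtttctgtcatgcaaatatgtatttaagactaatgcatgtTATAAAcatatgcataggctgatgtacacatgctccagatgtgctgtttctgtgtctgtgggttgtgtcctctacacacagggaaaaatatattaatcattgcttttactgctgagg
Aldh1a2, chr9:71215539-71215788, plus strand: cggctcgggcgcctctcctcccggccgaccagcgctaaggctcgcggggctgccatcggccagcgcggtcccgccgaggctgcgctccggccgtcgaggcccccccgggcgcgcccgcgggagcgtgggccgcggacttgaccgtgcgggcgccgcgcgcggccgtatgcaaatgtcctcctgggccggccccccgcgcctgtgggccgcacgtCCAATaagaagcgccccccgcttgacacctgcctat
Slc6a13, chr6:121300038-121300287, plus strand: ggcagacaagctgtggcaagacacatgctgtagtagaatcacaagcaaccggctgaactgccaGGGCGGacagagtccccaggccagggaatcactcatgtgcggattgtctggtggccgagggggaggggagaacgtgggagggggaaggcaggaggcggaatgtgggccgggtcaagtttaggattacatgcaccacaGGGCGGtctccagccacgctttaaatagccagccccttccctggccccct
The 4 windows differ in composition. The G and C content was 62% for Col1a2, 35.2% for Col3a1, 77.6% for Aldh1a2 and 60.8% for Slc6a13, beside a median of 52.4% over 32851 windows of the same length. TATAAA was found in Col3a1, in 12.4% of all windows, with its first letter 117 bases before the start. CCAAT was found in Col1a2 and Aldh1a2 (33.8% of all windows), at 109 and 36 bases before the start. GGGCGG was found at 2 places each in Col1a2 and Slc6a13 (32.7% of all windows). No motif was shared by all 4 windows. The H19 transcript also carries the precursor of miR-675 in an exon. Its mature forms, at chr7:142577112-142577133 and chr7:142577078-142577099 on the minus strand (GRCm38.p6, RefSeq), are shown with the seed (bases 2 to 8) in capitals because H19, the noncoding gene of the set, is their precursor. They were not measured here.
miR-675-5p: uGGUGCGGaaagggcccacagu
miR-675-3p: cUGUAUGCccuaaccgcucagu

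Values below are reads normalised to the size factor of each library, from totals of 23930164 to 36515331 reads per library. Tbr1 was read at 2195 ± 846 in WT vehicle females and 3588 ± 1502 in HT vehicle females (SD, n = 5 each), and these values do not tell its alleles apart. Markers of the olfactory bulb, which the prefrontal dissection borders on, varied more than the fibroblast genes did. The summed level of 7 such markers (Cdhr1, Doc2g, Eomes, Shisa3, Tbx21, Th and Trh) ranged from 6287 to 22899 in WT vehicle females and from 244 to 2058 in WT fluoxetine females. It ranged from 364 to 23854 in HT vehicle females, 161 to 1397 in HT fluoxetine females, 1268 to 15813 in WT lithium females and 673 to 9720.5 in HT lithium females, and none of the 7 was at 0 in any library. Markers of cortical excitatory neurons were read in all groups, as were 26 of 26 other fibroblast markers, whose sum ranged from 9679 to 18402 in females. The 10 vehicle males stood apart from the other males: 5106 genes were higher and 5210 lower in WT fluoxetine than in WT vehicle males (limma, adjusted p below 0.05), while fluoxetine and lithium males of WT differed in 163 genes.

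Per kilobase of exon, averaged over all 60 libraries, Igf2 was the most abundant of the 9 at 579 normalised reads per kb, and stood at place 2343 of 18077 genes. Slc6a13 (126), Aldh1a2 (120), Col1a1 (118) and Col1a2 (107) followed at similar levels per kb. Dcn stood at 73.7, Col3a1 at 50.8, Lum at 29.0 and H19 at 10.2 per kb. H19 rested on 7 to 63 reads per library and Lum on 26 to 136, while each of the other 7 had at least 135 reads in every library. Igf2 shares exon sequence with the antisense gene Igf2os. The kit marks strand but the counting is not stated to use it, so reads of the pair cannot be told apart in the shared stretch. Igf2os itself was at 4.89 to 29.7 normalised reads. A readthrough gene (Gm49394) also shares exons with Igf2 and is not listed in the table used here.

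**Figure D1:**
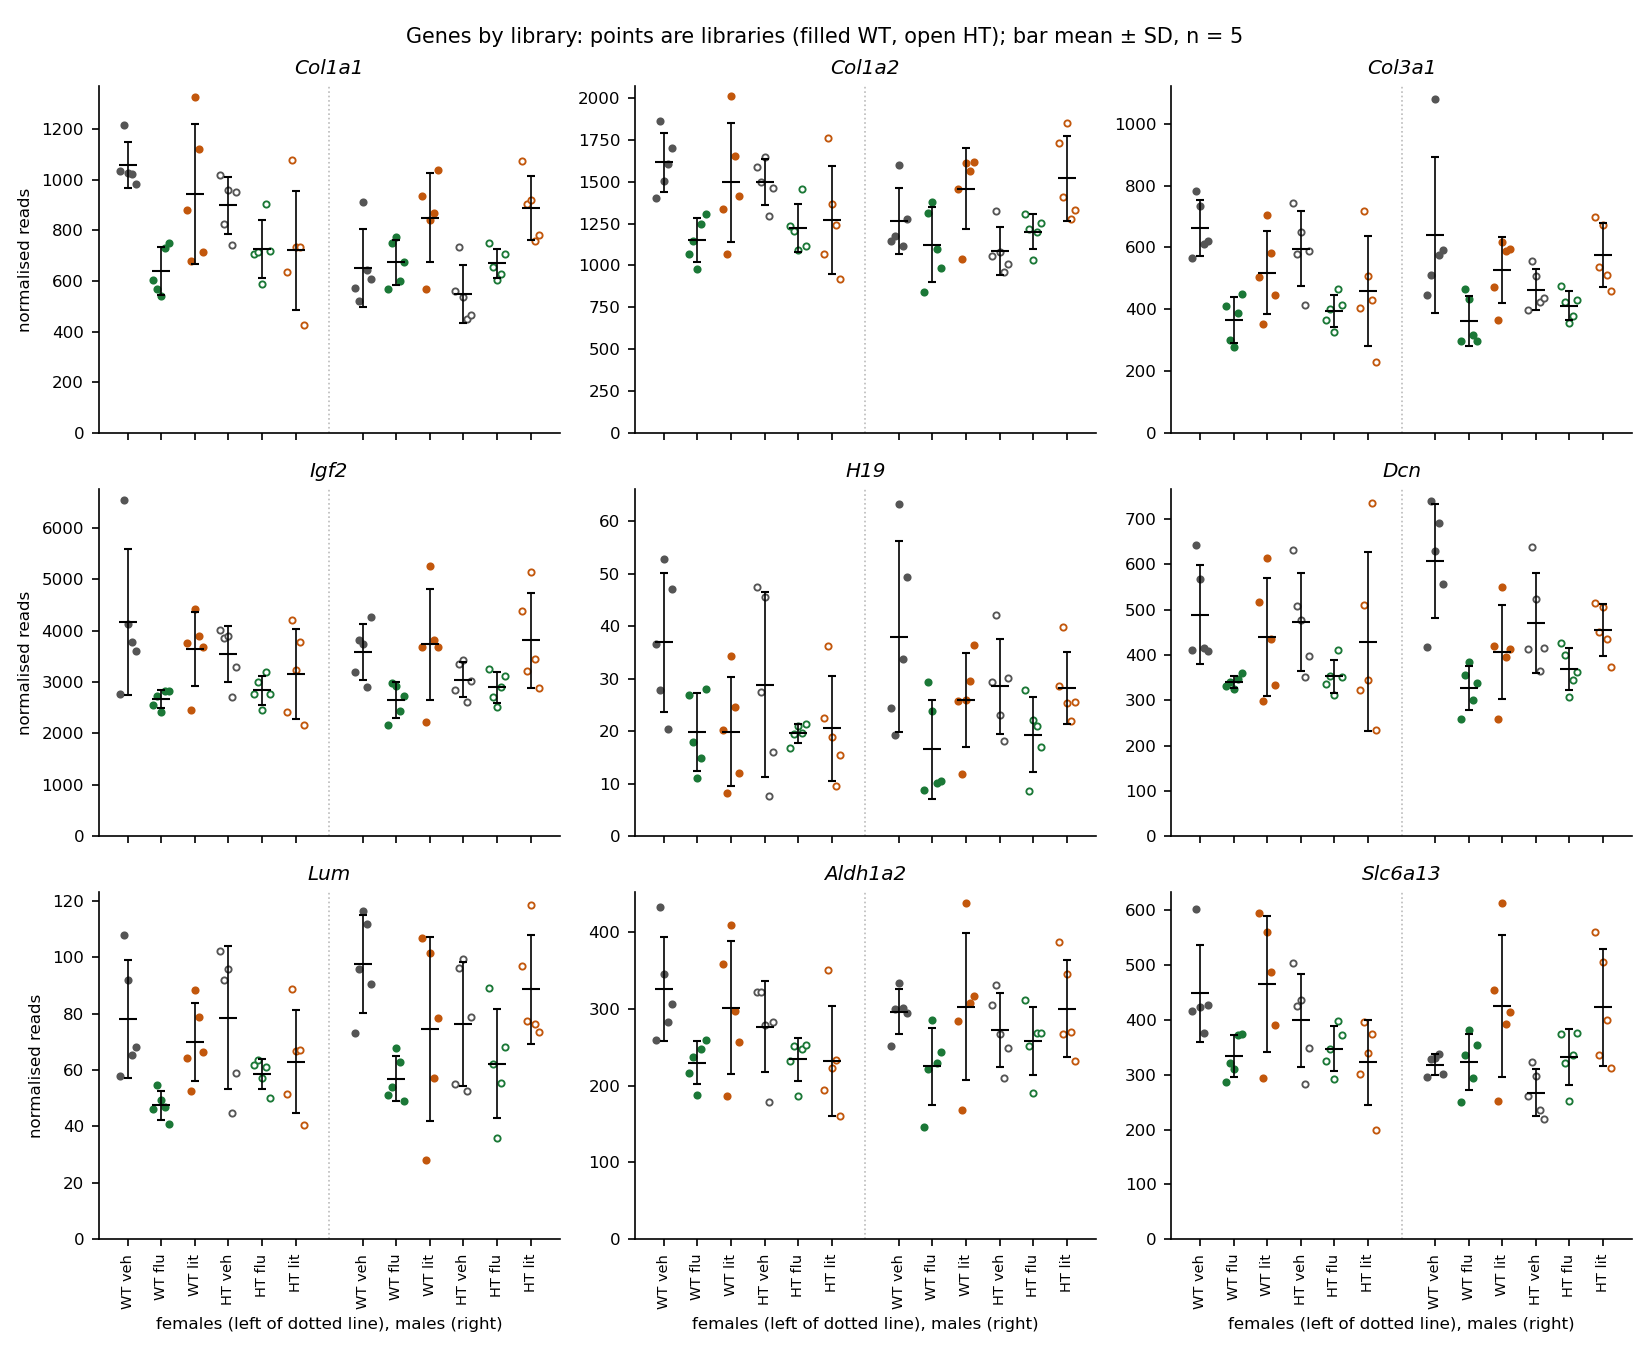
Normalised reads (y axis, linear from 0) of each gene in the 60 libraries, by group along the x axis with females left and males right of the dotted line. Points are libraries (filled WT, open HT), and bars are the mean ± SD of 5. In WT females all 5 fluoxetine libraries lie below all 5 vehicle libraries for 7 of the 9 genes.

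The first comparison asks whether these genes differed under fluoxetine in WT females. All 9 were lower on average under fluoxetine than under vehicle, and 7 fell past the threshold (limma, adjusted p below 0.05): Col1a1, Col1a2, Col3a1, Igf2, Dcn, Lum and Aldh1a2. Of all 17781 genes tested, 19% fell past that threshold in the same comparison. The 9 genes vary together from library to library, so they are not 9 separate results. The median log2 change of the 9 was -0.58, beside 0.01 over all genes. The vehicle and fluoxetine values did not overlap for 7 of the 9, all but Igf2 and H19, while 29.2% of all genes had no overlap in either direction.

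Type I and type III collagen gave the smallest adjusted p-values of the group. Col1a1 was at 1036, 1215, 1028, 1022 and 982 normalised reads in the 5 WT vehicle females and at 606, 569, 542, 732 and 750.1 in the 5 WT fluoxetine females. Every vehicle library lay well above every fluoxetine library. Col1a1 fell by 0.73 on the log2 scale (SE 0.17, limma adjusted p = 0.00156). Col1a2, the partner chain, was at 1404, 1860, 1504, 1604 and 1699 under vehicle and at 1069, 1148, 981, 1248 and 1305 under fluoxetine. Its groups did not overlap either, and it fell by 0.49 (SE 0.143, limma adjusted p = 0.00707). Col3a1 was at 566, 782, 733, 612 and 623 under vehicle and at 411, 300.4, 279, 388 and 450 under fluoxetine. It fell by 0.87 (SE 0.204, limma adjusted p = 0.00167), to 0.547 of the vehicle level.

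The proteoglycans fell less clearly. Dcn was at 410, 642, 567, 416 and 408 in the WT vehicle females and at 332, 341, 324, 347 and 359.5 in the WT fluoxetine females. The fluoxetine libraries were tightly grouped, and 3 of the 5 vehicle libraries stood close above them. Dcn fell by 0.49 (SE 0.202, limma adjusted p = 0.0465). Lum was at 57.8, 107.9, 91.8, 65.5 and 68.0 under vehicle and at 46.0, 54.7, 49.4, 46.8 and 40.7 under fluoxetine, and fell by 0.67 (SE 0.246, limma adjusted p = 0.0261). Without vehicle replicate 2 the adjusted p of both missed the threshold, as it did for Igf2 and Aldh1a2, and 3 of the 9 genes were called. Without vehicle replicate 3 the calls for Dcn, Lum and Aldh1a2 were lost, and 4 were made.

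Igf2 was at 2769, 6543, 4126, 3786 and 3600 in the WT vehicle females and at 2557, 2730, 2415, 2827 and 2825 in the WT fluoxetine females. Vehicle replicate 1 lay within the fluoxetine range, and vehicle replicate 2 stood far above every other female. Igf2 fell by 0.58 (SE 0.178, limma adjusted p = 0.00925). H19 was at 36.5, 27.8, 52.7, 20.4 and 47.1 under vehicle and at 26.8, 17.9, 11.1, 14.9 and 28.1 under fluoxetine, so the groups overlapped. Its difference of -0.87 (SE 0.39) had a limma adjusted p of 0.0694. With edgeR and with DESeq2 on the reads recovered from the table, H19 passed, at adjusted p = 0.0489 and 0.0453. The highest Igf2 value of the WT vehicle females (replicate 2) and their highest H19 value (replicate 3) came from different libraries.

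Aldh1a2 was at 260, 433, 345, 283 and 306 in the WT vehicle females and at 216, 237, 188, 248 and 259 in the WT fluoxetine females. The lowest vehicle and the highest fluoxetine library were nearly level, without overlap. Aldh1a2 fell by 0.49 (SE 0.199, limma adjusted p = 0.0458). Slc6a13 was at 416, 603, 423, 376 and 428 under vehicle and at 288, 322, 311, 373 and 374 under fluoxetine, again without overlap. Its difference of -0.42 (SE 0.184) had a limma adjusted p of 0.0651, and edgeR and DESeq2 gave 0.045 and 0.0442.

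The olfactory bulb markers moved with this comparison. All 7 fell in WT females under fluoxetine, with a median log2 change of -5.15, among them Trh (-4.12, SE 0.71) and Tbx21 (-5.60, SE 1.03). With the mean of the bulb list as a covariate in the fit, 0 of the 9 genes were called by limma, and only 1 gene of the whole table was. Under this covariate the difference was -0.33 for Col1a1, -0.27 for Col1a2, -0.44 for Col3a1, -0.38 for Igf2, -0.19 for Lum and -0.09 for Dcn. Aldh1a2 (0.02), H19 (0.03) and Slc6a13 (5e-04) stood near 0, with a positive sign. The counts of other cell types stand beside the 19% of all genes that fell. Of the choroid plexus markers 2 of 8 fell (median -0.74), Aqp1 by 3.33 and Clic6 by 2.20, and their summed level was 259 to 694 in vehicle and 128 to 170.4 in fluoxetine WT females. Mural cell markers fell in 3 of 9 (median -0.23), such as Vtn (-0.50) and Notch3 (-0.28), and endothelial markers in 3 of 7 (median -0.19), such as Cldn5 (-0.64) and Cdh5 (-0.38). Of the bone markers 2 of 4 fell (median -1.12), Sp7 and Ibsp by 3.50 and 1.90. Ibsp was low, with a median of 7.27 and a maximum of 23.1 normalised reads over all 60 libraries. Sp7 had a median of 136.1 and a maximum of 850.3, close to the bulb marker Trh (136.9 and 785.8). For the bone marker Dmp1 these values were 135.1 and 188.8. Whether the Sp7 reads came from bone was not tested. Of the olfactory ensheathing glia markers 2 of 3 fell (median -0.93), Prss56 (-2.76) and Frzb (-0.93). Border macrophage markers (0 of 5 called, median -0.29, with Cd163 at -0.43 and Lyve1 at -0.39) and red cell markers (0 of 5, median -0.32, with Alas2 at -0.40 and Hba-a1 at -0.32) had no call. Cortical excitatory neuron markers moved the other way, with 4 of 6 higher (median 0.79), including Slc17a7 (0.51) and Emx1 (0.58). The 10 striatal markers moved in both directions, with a positive median of 0.46, although 2 of them fell, Penk by 1.28 and Adora2a by 1.29. The mean log2 of the bulb list was 9.13 to 10.89 in WT vehicle females and 4.07 to 7.37 in WT fluoxetine females. These ranges do not overlap, and the covariate had 1 slope for both sexes. The covariate fit therefore cannot tell the bulb from the drug in this comparison. The part of the bulb and these other tissues in the fall of the fibroblast genes was not tested.

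The same comparison in HT females gave lower averages for all 9 genes under fluoxetine, and limma called 0 of the 9 and 0% of all genes, with 2 of the 9 (Col1a2 and Col3a1) and 4063 genes at an unadjusted p below 0.05. EdgeR and DESeq2 also called 0 of the 9. The median change of the 9 was -0.31, beside 0.01 over all genes. Col3a1 was at 745, 578, 651, 416 and 589 in the HT vehicle females and at 364, 403, 327, 467 and 415 in the HT fluoxetine females. Vehicle replicate 4 lay among the fluoxetine libraries, and the other 4 lay above them. The difference was -0.58 (SE 0.204, limma adjusted p = 0.161). Without that library, 1 of the 9 genes was called. Col1a1 stood at 899 ± 112 under vehicle and 727 ± 113 under fluoxetine (SD, n = 5 each). The ranges of the groups overlapped for all 9 genes, against 3.5% of all genes without overlap. The interaction of genotype with fluoxetine in females was called for 0 of the 9 and 0% of all genes (limma, smallest adjusted p of the 9 0.906, 0 of the 9 at an unadjusted p below 0.05, and 0 of the 9 by edgeR and DESeq2), so the effect in WT is not shown to differ from that in HT.

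Under lithium none of the 9 genes passed the threshold in females. In WT, limma called 0 of the 9 and 0.00562% of all genes, with 1 of the 9 (H19) and 2012 genes at an unadjusted p below 0.05, and the median change of the 9 was -0.16. In HT, it called 0 of the 9 and 0.0169% of all genes, with 2 of the 9 (Col1a1 and Col3a1) and 1690 genes unadjusted, and the median was -0.30. EdgeR and DESeq2 called 0 of the 9 in both. In neither genotype did a gene of the 9 have groups without overlap, against 1.33% of all genes in WT and 0.517% in HT. Col1a1 was at 880.0, 679, 1325, 1119 and 716 in the WT lithium females and at 637, 1077, 733, 736 and 427 in the HT lithium females. These libraries held both the lowest and the highest Col1a1 value of the 30 females. HT lithium replicate 5 was the lowest of all 30 females for 8 of the 9 genes, all but H19, and WT lithium replicate 3 was the highest for Col1a1 and Col1a2.

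The drugs were also compared directly. Between fluoxetine and lithium in WT females, limma called 0 of the 9 genes and 3.43% of all genes, although 8 of the 9 were lower under fluoxetine and 6 of the 9, beside 4528 of all 17781 genes, had an unadjusted p below 0.05. The nearest was Col1a1, with a difference of -0.53 (SE 0.17, limma adjusted p = 0.0661), which edgeR and DESeq2 called at 0.042 and 0.0268 as the 1 gene of the 9. Without WT lithium replicate 2, limma called 3 of the 9, and without replicate 5 it called 1. In HT females 0 of the 9 and 0.478% of all genes were called, 0 of the 9 at an unadjusted p below 0.05, and edgeR and DESeq2 called 0. Differences there ran from -0.17 (Dcn) to 0.14 (Slc6a13).

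Genotype itself made no called difference in females. HT against WT gave 0 of the 9 genes and 0% of all genes by limma under vehicle, 0 of the 9 and 0% under fluoxetine, and 0 of the 9 and 0% under lithium. At an unadjusted p below 0.05 there were 0, 0 and 2 of the 9, the last being Col1a1 and Slc6a13 under lithium, and edgeR and DESeq2 called 0 in each. Under vehicle all 9 differences were negative, from -0.02 (Lum) to -0.53 (H19). Under fluoxetine all 9 were positive, and the largest was 0.30 (Lum). Because the 9 genes vary together, equal signs are not 9 separate results.

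Among the group means of females, WT vehicle was the highest and WT fluoxetine the lowest for the 3 collagens and for Igf2. Col1a1 was highest in WT vehicle (1057 ± 91), followed by WT lithium (944 ± 275), HT vehicle (899 ± 112), HT fluoxetine (727 ± 113), HT lithium (722 ± 235) and WT fluoxetine (639.9 ± 95). Col1a2 ran from 1614 ± 176 in WT vehicle to 1150.2 ± 131 in WT fluoxetine, and Col3a1 from 663 ± 90.2 to 366 ± 73.1 in the same groups. Igf2 ran from 4165 ± 1420.2 in WT vehicle to 2671 ± 180.2 in WT fluoxetine, with HT fluoxetine at 2845 ± 281 next to it. Dcn (489 ± 109), Aldh1a2 (325 ± 67.7) and H19 (36.9 ± 13.3) were likewise highest in WT vehicle. Lum was level between HT vehicle (78.6 ± 25.4) and WT vehicle (78.2 ± 20.9), and Slc6a13 was highest in WT lithium (466 ± 124). Of the 45 pairs of neighbours in these orders, 43 differed by less than the larger of their SDs.

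**Figure D2:**
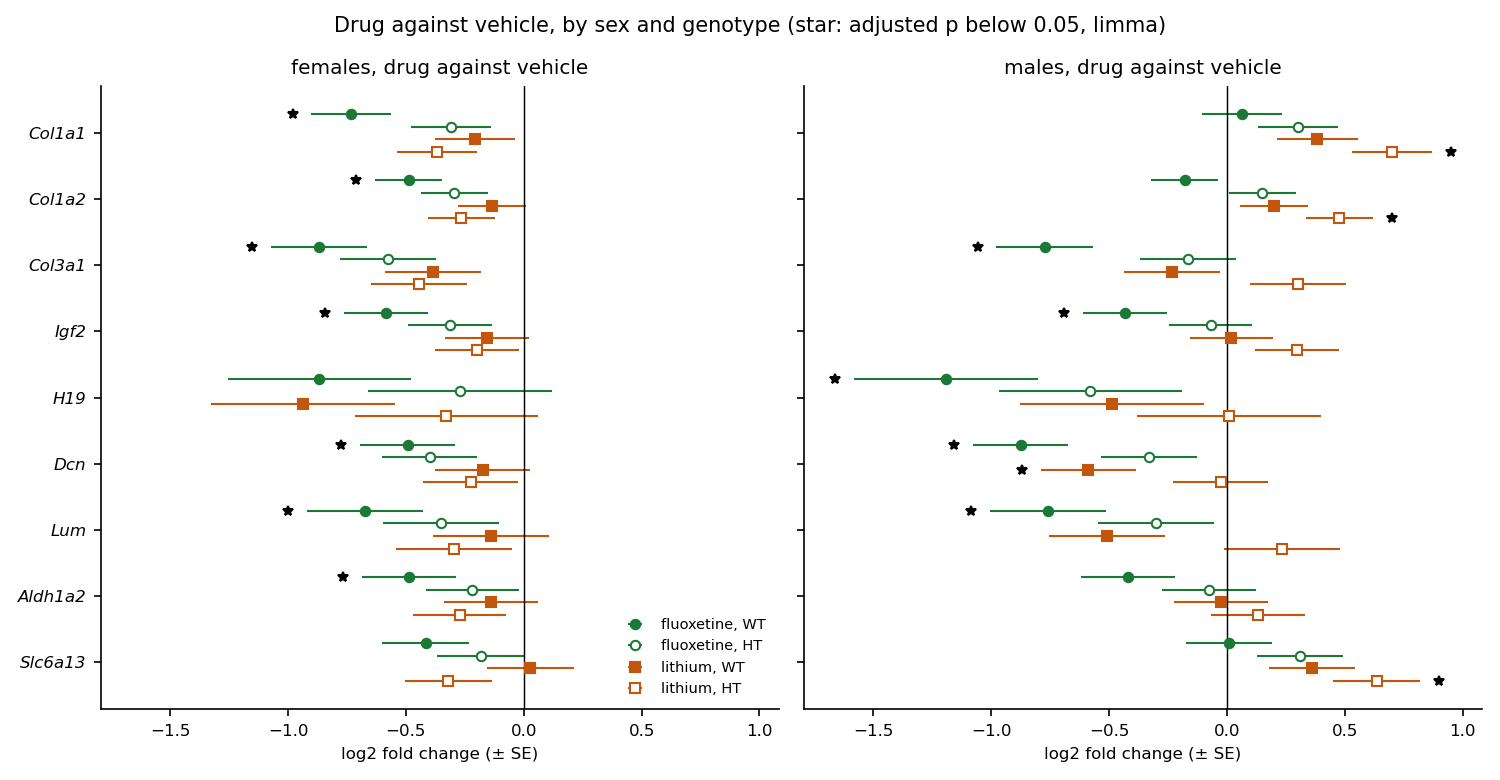
Log2 fold change of drug against vehicle (x axis, ± SE, limma) for each gene (y axis), in females (left) and males (right), with circles for fluoxetine, squares for lithium, filled symbols for WT and open ones for HT. Stars mark adjusted p below 0.05: 7 genes for fluoxetine in WT females, and in males 5 for fluoxetine in WT, 1 for lithium in WT and 3 for lithium in HT.

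Replicates were unevenly spread. The coefficient of variation within a group, taken as the median over the 9 genes, was 11.5% in WT and 11.7% in HT fluoxetine females, against 20.8% and 21.2% in vehicle and 26.5% and 30.9% in lithium females. Dcn was the tightest, at 341 ± 13.6 in WT fluoxetine females. In males the median was 16.0% in WT and 12.7% in HT fluoxetine, 17.7% and 17.5% in vehicle, and 28.8% and 21.1% in lithium. These shares are given without a test.

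In males every comparison of a drug with vehicle rests on the vehicle libraries that stood apart, and the effect of the drug and whatever set those libraries apart cannot be told apart. In WT, 5 of the 9 genes were lower under fluoxetine (29.3% of all genes fell): Col3a1, Igf2, H19, Dcn and Lum. Dcn was at 419, 741, 629, 692 and 556 in WT vehicle males and at 259, 357, 384, 301 and 337 in WT fluoxetine males. No library overlapped, as for 2 of the 9 genes and 39.5% of all genes in this comparison, and Dcn fell by 0.87 (SE 0.202, limma adjusted p = 0.000244). Lum fell by 0.76 (SE 0.246, limma adjusted p = 0.00743), from 97.6 ± 17.3 to 56.9 ± 8.10 (SD, n = 5 each), also without overlap. H19 fell from 38.0 ± 18.2 to 16.5 ± 9.40 (SD, n = 5 each, limma adjusted p = 0.00796). Col3a1 fell by 0.77 (SE 0.204, limma adjusted p = 0.00116) and Igf2 by 0.43 (SE 0.178, limma adjusted p = 0.0336). Col1a1, by contrast, was at 574, 520, 913, 643 and 607 in WT vehicle and at 569, 748, 774, 599 and 677 in WT fluoxetine males. These groups lay on top of each other, with a difference of 0.07 (SE 0.17, limma adjusted p = 0.755). With the bulb list as a covariate 1 of the 9, Dcn, was called. The mean log2 of the bulb list was 8.915 to 11.06 in WT vehicle males and 4.149 to 7.672 in WT fluoxetine males. These ranges do not overlap, so the covariate fit cannot tell the bulb from the drug here either.

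In HT males under fluoxetine limma called 0 of the 9 genes, 0 of the 9 at an unadjusted p below 0.05, although 41.4% of all genes were called, and edgeR and DESeq2 called 0. With the bulb covariate 2 of the 9 were called, Col1a1 (0.44) and Slc6a13 (0.46), both higher under fluoxetine. With only the compared groups in the fit 1 was called, Col1a1, also higher. The mean log2 of the bulb list was 7.706 to 10 in HT vehicle males and 4.454 to 8.343 in HT fluoxetine males. These ranges overlap only in part, which limits what the covariate can separate. In WT males 1 of the 9 was lower under lithium (23.7% of all genes fell): Dcn, by 0.59 (SE 0.202, limma adjusted p = 0.0137). Without WT lithium replicate 2 this was a difference of -0.43 that missed the threshold. Limma called 2 of the 9 without WT lithium replicate 1, 2 or 3 and without WT vehicle replicate 1 or 3. EdgeR called 2 of the 9 and DESeq2 3, adding Slc6a13 (adjusted p = 0.0489 and 0.0369) and, for DESeq2, Col1a1 (0.0388), both higher under lithium.

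In HT males 3 of the 9 were higher under lithium (18.5% of all genes rose): Col1a1, Col1a2 and Slc6a13. Col1a1 was at 559, 734, 537, 449 and 466 in HT vehicle males and at 1072, 903, 921, 757 and 782 in HT lithium males. No library overlapped, as for 1 of the 9 genes and 23.6% of all genes in this comparison, and Col1a1 rose by 0.70 (SE 0.17, limma adjusted p = 0.000757). Col1a2 rose by 0.48 (SE 0.143, limma adjusted p = 0.0062) and Slc6a13 by 0.64 (SE 0.184, limma adjusted p = 0.00468). The count was 3 under each alternative that keeps the vehicle males and with each library left out in turn.

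The other comparisons of males gave no call. Between fluoxetine and lithium limma called 0 of the 9 genes and 0.917% of all genes in WT males, and 0 of the 9 and 0.371% in HT males, with 3 and 5 of the 9, and 3006 and 2186 of all 17781 genes, at an unadjusted p below 0.05. All 9 differences were negative in both genotypes, with medians of -0.38 and -0.37, beside 0.01 and 0.005 over all genes. These 2 comparisons share no library, but the 9 genes vary together, so their equal signs are not 9 separate results. HT against WT called 0 of the 9 and 0% of all genes under vehicle, 0 of the 9 and 0% under fluoxetine and 0 of the 9 and 0% under lithium, with 0 of the 9 unadjusted in each. EdgeR and DESeq2 called 0 in these 5 comparisons. Limma, edgeR and DESeq2 called 0 of the 9 for the interaction of genotype with either drug in males (0% of all genes by limma), where 1 of the 9 each had an unadjusted p below 0.05, Col3a1 for fluoxetine and Lum for lithium.

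Ratios between the genes within a library do not depend on the scaling of that library. The ratio of Col1a1 to Col3a1 was 0.846 to 1.41 in the 10 vehicle males (median 1.07) and 1.36 to 2.26 in the other 50 libraries (median 1.68). Col1a1 to Dcn was 0.701 to 1.45 in vehicle males (median 1.14) and up to 2.57 elsewhere (median 2.02), and Col1a2 to Dcn was 1.59 to 2.74 against 1.69 to 4.23. Slc6a13 to Aldh1a2 was 0.858 to 1.17 in vehicle males and 1.13 to 1.71 elsewhere. For each of these pairs the means of the WT and HT vehicle males were the lowest of the 12 groups, and single libraries overlapped. Igf2 to H19 ranged widely, from 59.1 to 198 in vehicle males and from 75.8 to 394 elsewhere. These ratios were chosen after their values were seen and are given without a test.

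**Figure D3:**
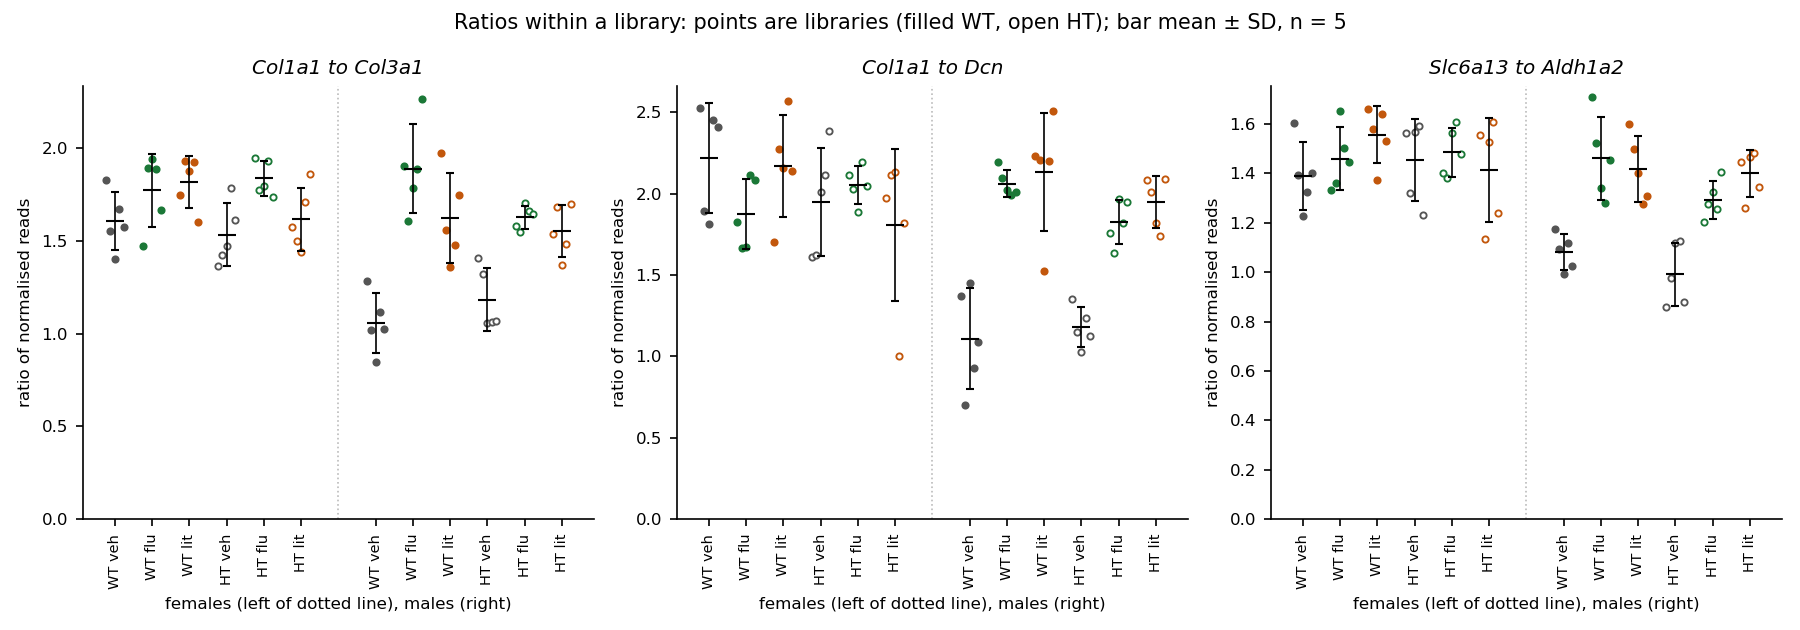
Ratio of normalised reads of 2 genes in the same library (y axis, linear from 0) for 3 pairs, by group along the x axis. Points are libraries (filled WT, open HT), and bars are the mean ± SD of 5. The WT and HT vehicle males have the lowest group means of each pair, with single libraries from 0.846 to 1.41 for Col1a1 to Col3a1.

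With group means removed, the 9 genes varied together from library to library. In females all 36 pairs had a positive Pearson r, from 0.375 to 0.927 (median 0.767), and 34 pairs had a permutation p below 0.05 after adjustment over the 36. Spearman's rho passed in 35. In males r ran from 0.327 to 0.91 (median 0.71), and 33 of 36 pairs passed by either measure. The closest pair in females was Col1a1 with Col3a1 (r = 0.927, rho = 0.887, permutation p = 1e-05 for each, the smallest that 100000 permutations can give, adjusted p = 2.3e-05 for r, 3e-05 for rho). In males it was Aldh1a2 with Slc6a13 (r = 0.91, rho = 0.83, permutation p = 2e-05 and 4e-05, adjusted 6.6e-05 and 0.00012). Leaving out the 2 libraries farthest from the median gave 0.875 and 0.875 for these pairs, and medians of 0.733 in females and 0.651 in males over all pairs.

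H19 was the loosest of the group. Its median r with the other 8 was 0.542 in females and 0.461 in males, while the other genes had medians of 0.726 to 0.816 in females and 0.662 to 0.785 in males. Igf2 and H19, neighbours on chromosome 7, gave r = 0.377 and rho = 0.397 in females (permutation p = 0.0651 and 0.0567, adjusted 0.067 and 0.0567). In males they gave r = 0.435 and rho = 0.413 (permutation p = 0.0212 and 0.032, adjusted 0.0232 and 0.0349). Without 2 libraries r was 0.413 and 0.348. H19 also had the fewest reads. Dcn and Lum, the neighbours on chromosome 10, gave r = 0.738 and rho = 0.781 in females (permutation p = 0.00016 and 0.00011, adjusted 0.00024 and 0.000198) and r = 0.796 and rho = 0.778 in males (permutation p = 1e-05 each, adjusted 6e-05 and 9e-05). Without 2 libraries r was 0.777 and 0.719.

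**Figure D4:**
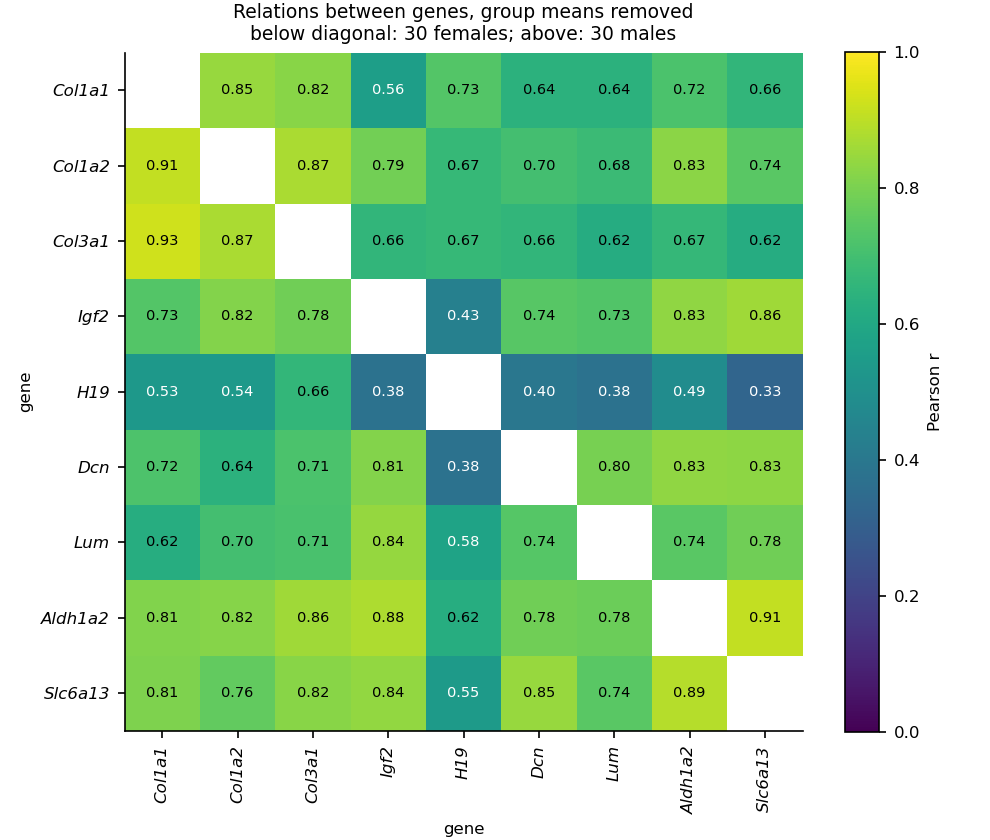
Pearson r between each pair of genes after removal of the group means, below the diagonal over 30 females and above it over 30 males, with the colour scale running from 0 to 1. All pairs are positive, and the H19 row and column hold the lowest values, down to 0.375 in females and 0.327 in males.

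The fibroblast genes were then set against markers of other cell types, 54 relations in each sex with p adjusted over them. In females the mean of the bulb list had a positive r with each of the 9 (median 0.654), and all 9 passed by permutation, with r and with rho. The closest was Aldh1a2 (r = 0.76, rho = 0.748, permutation p = 4e-05 and 6e-05, adjusted 0.00108 and 0.00162, r = 0.71 without 2 libraries). In males 0 of the 9 passed by either measure, and the median r was 0.188 (-0.0653 to 0.269). Without the 2 libraries farthest from the median of the bulb list, male r ran from 0.167 (Igf2) to 0.449 (Lum). Female r then ran from 0.38 (Lum) to 0.71 (Aldh1a2). The difference between the sexes was not tested. For choroid plexus markers 9 of 9 passed in females with r (median 0.60) and 8 of 9 with rho, and in males 0 of 9 with r (median 0.202) and 1 of 9 with rho, Dcn. Border macrophages, which live in the same membranes, passed for 8 of 9 in each sex by either measure, all but H19, with median r of 0.63 in females and 0.792 in males. Igf2 was the closest to them in males (r = 0.909, rho = 0.909, permutation p = 1e-05 each, adjusted 0.000108, r = 0.849 without 2 libraries). Mural cells passed with r for 7 of 9 in females and with rho for 4 of 9, and in males for 9 of 9 by either measure (median r 0.609 and 0.644). Endothelium passed for 0 of 9 in females by either measure, and in males for 8 of 9 with r and 6 of 9 with rho (median r 0.31 and 0.538). Red cells passed for 0 of 9 in both sexes by either measure (median r -0.05 and -0.06).

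**Figure D5:**
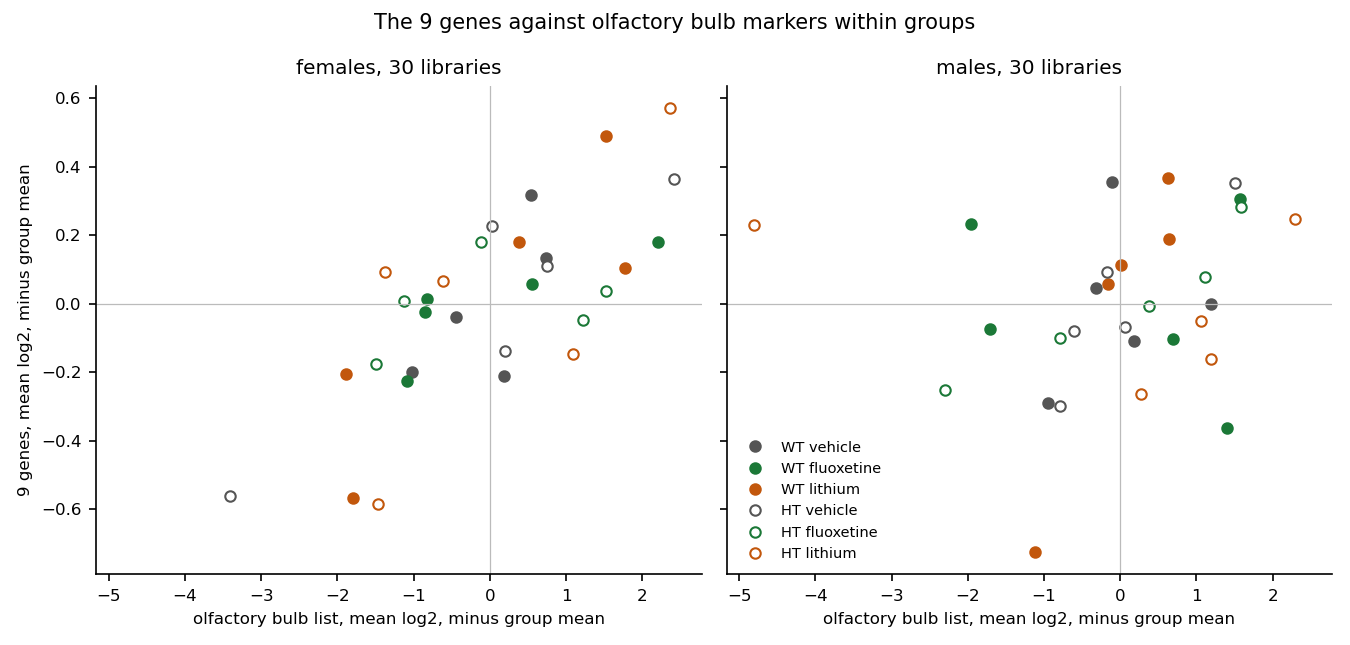
Mean log2 level of the 9 genes (y axis) against that of the 7 olfactory bulb markers (x axis), both minus their group means, in 30 females (left) and 30 males (right). Points are libraries, grey for vehicle, green for fluoxetine and orange for lithium, filled for WT and open for HT. The median r over the 9 genes was 0.654 in females, whose points rise from left to right, and 0.188 in males. The male point farthest left is HT lithium replicate 3, at -4.80.

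The genes whose variation was most like the mean of the 9 over the 30 females, group means removed, were Flnc (r = 0.934, and 0.706 over the 30 males), Slc22a6 (0.927 and 0.938), Aebp1 (0.918 and 0.92), Emp3 (0.912 and 0.642), Serping1 (0.897 and 0.916), Itih2 (0.894 and 0.866), Bmp6 (0.886 and 0.87), Vtn (0.885 and 0.732), Mrc2 (0.883 and 0.865) and Efemp1 (0.882 and 0.813). They were picked from 12784 genes for the female value, so only the male value is independent of the choice. Slc22a6 and Serping1 are also on the list of other fibroblast genes, and Vtn is on the mural cell list. Gene by gene, the nearest were Nid1 for Col1a1 (0.863 and 0.639), Slc22a6 for Col1a2 (0.869 and 0.915), Anxa5 for Col3a1 (0.892 and 0.44) and Fmod, a proteoglycan of collagen fibrils, for Igf2 (0.93 and 0.953). Serping1 was nearest to Aldh1a2 (0.935 and 0.86), Emp3 to Slc6a13 (0.907 and 0.633), Nr2f2 to Dcn (0.863 and 0.418) and Gpnmb to H19 (0.874 and 0.408). Fkbp9 was nearest to Lum in females (0.814) but not in males (-0.02).

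Other genes of the same pathways were read in WT females under fluoxetine, beside 20.9% of all genes that rose and 19% that fell. Of 26 other meningeal fibroblast genes 0 rose and 7 fell (median -0.25), among them Lama2 (a basement membrane laminin, -0.39, SE 0.0829) and Islr (-1.26, SE 0.276). Of 12 other fibrillar and partner collagens 4 fell and 0 rose (median -0.10): Col5a2, which helps fibrils to nucleate, by 0.55, Col2a1, the collagen of cartilage, by 1.46 and Col6a3 by 0.36 were among them. Of 16 genes that process or crosslink collagen 10 fell and 0 rose (median -0.37), led by Sparc (a collagen-binding matrix protein, -0.58, SE 0.0878), Serpinh1 (the collagen chaperone, -0.76, SE 0.145) and Loxl1 (a crosslinking oxidase, -1.23, SE 0.238). Of 8 basement membrane collagens 4 fell (median -0.37), including Col18a1 (-0.66), Col4a5 (-0.67) and Col4a1 (-0.36). These lists share some genes with each other and were drawn up with results of these data known.

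The proteoglycan, growth factor and retinoid lists gave mixed directions. Of 7 other small leucine-rich proteoglycans 1 fell (median -0.25), Bgn (biglycan) by 0.73, with Ogn at -0.48 and Podn at 0.45. Of 10 IGF ligands, receptors and binding proteins 1 rose and 4 fell (median -0.01). Igfbp2 fell by 0.83, Igf1 by 1.27 and Igfbp7 by 0.58. Of 12 other imprinted genes 1 rose and 0 fell (median -0.01): Gnas rose by 0.19, while Meg3 stood at 0.23 and Mest at -0.19. In the retinoic acid pathway 3 of 16 rose and 4 fell (median 0.03), among them the synthesis enzyme Aldh1a3 (-1.09) and the binding proteins Crabp2 (-1.42) and Crabp1 (-2.53). Among relatives of Slc6a13, the astrocyte GABA transporter Slc6a11 fell by 1.35 and the taurine transporter Slc6a6 by 0.15. Of 12 genes of TGF-beta signalling and fibroblast activation 1 rose and 6 fell (median -0.33), such as Tgfb2 (-0.49), Ltbp2 (-1.73) and Tgfb3 (-0.40). In the other 3 comparisons of a drug with vehicle in females, limma called 0 genes of each of these lists. Hardly any gene was called there: 0 of 17781 for fluoxetine in HT, 1 for lithium in WT and 3 for lithium in HT.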

How the data were processed

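Normalised read signals of 60 prefrontal cortex libraries (5 in each of 12 groups, taken from the sample titles) were used as the authors deposited them, in 1 table. Each signal in the deposited table is a read number divided by the size factor of its library: 100% of values were whole multiples of 1 read at a tolerance of 1e-06. In 6 libraries the size factor lay so close to 1 (0.993 to 1.01) that the step of 1 read is harder to tell from unscaled reads, and their values too were whole multiples. Salmon 0.11.2, R 3.6.0, DESeq2 1.19.11 and build GRCm38 appear in the submitters' processing notes. The sources do not state an annotation release or a strand setting. Symbols and coordinates were taken from GENCODE M21, which matched 18077 of 18088 identifiers.

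Because the file holds normalised values and not counts, limma 3.58.1 (R 4.3.3) was used with a trend on log2(value + 1). The fit held the group means of all 60 libraries and the 17781 genes that reached 10 in 5 or more of them, with two-sided tests, Benjamini-Hochberg adjustment within a comparison, and a call at adjusted p below 0.05. Fold changes on this scale understate those of low genes. The procedure was tested on simulated data. EdgeR 4.0.16 and DESeq2 1.42.0 were run on the recovered reads. Other alternatives were a pseudocount of 5, no filter, quantile normalisation, only the compared groups, a replicate block, an olfactory bulb covariate, each library left out and, added after the data had been seen, no vehicle males. Relations between genes used values minus group means, with 100000 permutations within groups.

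The 9 genes and the gene lists were chosen with earlier results of these data known. Beside the 9 genes and Tbr1, the text names the genes of smallest p in WT females under fluoxetine, up to 3 per pathway list and up to 2 per cell type list, and those most alike in females (mean of at least 50, no predicted genes or pseudogenes). Ratios and extreme libraries were chosen after their values were seen. The count over the list of GABA and related transporters is not reported here.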

Additional observations from a re-analysis of the deposited data

Results flagged for a closer look

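Of 108 sets of 5 libraries (9 genes in 12 groups), 4 held 1 library far from the rest, with a gap of more than 0.71 of the whole range. Chance alone gives about 1 in 20. In WT vehicle females, replicate 2 was the highest for Col1a1, the type I collagen chain (1215.1 normalised reads, next 1036.2), and for Slc6a13, the GABA and taurine transporter (603.2, next 427.9). In WT lithium males, replicate 2 was the lowest for Col1a2 (1039.5, next 1455.3). In WT vehicle males, replicate 3 was the highest for Col3a1, type III collagen (1079.6, next 591.4).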

How the results depend on the processing

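In WT females under fluoxetine, limma called 7 of the 9 genes, all lower, beside 19% of all genes that fell. The count was 0 with the olfactory bulb covariate, under which Aldh1a2 (0.0238), H19 (0.0345) and Slc6a13 (5e-04) stood near 0, with a positive sign. It was 9 with edgeR, with DESeq2 and with only the compared groups, 5 with quantile normalisation, and 6 without the vehicle males. Leaving out 1 library gave 3 to 9. Counts in WT males under fluoxetine were 1 with the bulb covariate and 4 to 6 without 1 library. In HT males under fluoxetine they were 2 with the bulb covariate and 1 with only the compared groups. In WT males under lithium, where 1 gene was called, the count was 2 with quantile normalisation and with edgeR, 3 with the bulb covariate and with DESeq2, and 1 to 2 without 1 library. Between fluoxetine and lithium in WT females it was 1 with edgeR and with DESeq2, and 0 to 3 without 1 library. Under fluoxetine in HT females it was 0 to 1 without 1 library. The cause of these changes was not tested. For the other settings the share of all genes called is not set beside these counts. They therefore show no result particular to the 9 genes. Leaving out the vehicle males gives no value for comparisons that need them. Of 195 counts under the alternatives 10 moved, as did 10 of 260 with a library left out. A move was a change by over 1.5 times, or a change to or from 0. Many of these counts were 0 in the main fit, and those that stayed at 0 were taken as unmoved. These shares therefore do not measure how stable the called results are. Of 135 values of called genes under the alternatives 14 lost their call and 1 turned direction, and 24 of 160 lost it with a library left out.

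Replicate numbers are shared by the groups, but the labels do not tie equal numbers to 1 litter or day. Over 330 pairs of equal number the deviations correlated at a mean of 0.00608 (-0.565 to 0.616). Of 60 libraries, 16 correlated best with their own number. Many of these pairs joined groups of different treatments, which the litter of 1 treated mother would not span. Such pairs cannot show whether equal numbers shared a litter. With the replicate block, 6 of the 9 genes were called in WT females under fluoxetine. Depth limits H19 and Lum most.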

Other observations

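Within a sex the same libraries held the ends of the range for several of the 9 genes. HT lithium replicate 5 was the lowest of the 30 females for 8 of the 9 genes, and WT vehicle replicate 2 the highest for 5 (Col3a1, Igf2, Lum, Aldh1a2 and Slc6a13). In males, WT fluoxetine replicate 1 was the lowest for 4 (Col1a2, Col3a1, Igf2 and Aldh1a2), and WT lithium replicate 3 the highest for 3 (Igf2, Aldh1a2 and Slc6a13). These libraries were singled out after their values were seen.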
